A study of Bos taurus with 3 samples.

Results

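The S100 calcium-binding proteins were followed in rumen epithelial cells through 10 genes picked by name, namely S100A2, S100A4, S100A6, S100A8, S100A9, S100A10, S100A11, S100A12, S100A14 and S100A16. Of these, 9 had a row under their symbol among the 19533 genes of the count table, and S100A6 was not analysed here. The cells were 20728 epithelial cells from the ventral rumen sac of 3 adult lactating Holstein cows, with 1 droplet library per cow and no treatment. Each cell was placed in 1 of 6 states by its UMIs (unique molecular identifiers, which count each captured transcript once) of 4 other genes. DLK2 is a membrane protein of the Notch ligand family, GJA1 is the gap junction protein connexin 43, GSTA1 is a glutathione transferase, and BPIFA2C is a secreted protein of the BPI-fold family. In this order, a cell with at least 5 UMIs of BPIFA2C was placed in the BPIFA2C-high state, one with at least 5 of GSTA1 in the GSTA1-high state, one with DLK2 and GJA1 together in the double state, one with GJA1 in the GJA1 state and one with DLK2 in the DLK2 state. All other cells were unmarked. No S100 gene was used to set a state, and the states are counts of marker transcripts, not cell types.

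S100 proteins are small proteins with a pair of EF-hand motifs that bind calcium, work mostly as dimers, and on calcium binding expose a surface that grips partners such as annexins or myosin. Most of their genes lie in the epidermal differentiation complex, beside genes of the cornified envelope. S100A8, S100A9 and S100A12, the calgranulins, are abundant in neutrophils, are also made by stratified epithelia, bind zinc and other metals that microbes need, and act as alarm signals outside the cell. The rumen wall is a keratinised stratified epithelium that faces a dense microbial community and takes up volatile fatty acids.

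The 6 states held 10046 unmarked, 7222 DLK2, 267 double, 485 GJA1, 2125 GSTA1-high and 583 BPIFA2C-high cells, and the smallest of the 18 sums of cow and state held 35 cells. The median depth was 9693 UMIs per cell in the DLK2 state and 17704 in the BPIFA2C-high state, and the median mitochondrial share was 10.7% and 18.8%. The cow libraries shared 35 cell barcodes. Keratins of the basal epithelium were abundant, with 1243591 UMIs of KRT5 and 850587 of KRT14, whereas 8 leukocyte markers together gave 1863 UMIs, of which 783 were CD74. LOR, KRT1 and IVL, genes of epidermal differentiation, had 1, 1 and 42 UMIs in all cells. UMI counts were summed per cow and state, so that the cow and not the cell was the replicate, and tested with the edgeR quasi-likelihood test with the cow as a block and Benjamini-Hochberg adjustment over 9968 genes. Genes were called where the adjusted p was below 0.05 and the log2 fold change lay beyond 0.25 in either direction. Levels are UMIs per 10000 UMIs of the sum, without the further scaling that edgeR applied for the fold changes. Because the states were set in order, they overlap in markers. GJA1 averaged 1.94 in the GJA1 state, 1.47 in the GSTA1-high state and 5.69 in the BPIFA2C-high state. Of its 11762 UMIs, 1299 lay in the GJA1 state, which therefore does not hold all cells with GJA1. GSTA1 averaged 9.04 in the GSTA1-high and 12.9 in the BPIFA2C-high state. With this 3′ kit a transcript gives UMIs from its end alone, so levels of different genes were set side by side without correction for length. Whether genes differ in how well they are captured was not tested.

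The 9 genes together took a growing share of the transcripts from the DLK2 to the BPIFA2C-high state. Their sum was 87.3, 92.7 and 127 UMIs per 10000 in the DLK2 state of cows 1, 2 and 3, and 206, 239 and 350 in the BPIFA2C-high state. Every cow was higher in the second state and the 2 ranges did not overlap. The means were 102 ± 21.5 (SD, n = 3 cows) in the DLK2 state, 126 ± 17.3 in unmarked cells, 146 ± 14.6 in the double state, 185 ± 19.6 in the GJA1 state, 220 ± 26.4 in the GSTA1-high state and 265 ± 75.5 in the BPIFA2C-high state. S100A4, S100A2 and S100A12 gave most of it, with 1302916, 1030625 and 642681 UMIs over all cells. S100A9, at 12159 UMIs, was the least abundant.

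Against the DLK2 state, most of the 9 S100 genes were higher in each of the GJA1, GSTA1-high and BPIFA2C-high states, and among the 9 S100A11 alone was lower. In the GJA1 state 7 of the 9 were called higher and 1 lower, where 15.1% of all genes tested were called higher and 12.6% lower. In the GSTA1-high state 8 were called higher and 1 lower, beside 24.7% and 24.3% of all genes. In the BPIFA2C-high state the counts were 8 and 1, beside 24.4% and 23.9%. The median log2 fold change of the 9 genes in these 3 comparisons was 0.68, 0.98 and 0.65, and that of all genes tested was -0.01, -0.02 and -0.02. The 3 comparisons share the sums of the DLK2 state and are not independent of each other.

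The other 2 comparisons moved fewer members. From the GJA1 to the GSTA1-high state 2 of the 9 were called higher, beside 0.873% of all genes, and the count called lower was 0, also at an unadjusted p under 0.05 and by DESeq2, beside 0.532%. From the GSTA1-high to the BPIFA2C-high state 3 were called higher and 1 lower, beside 2.59% and 1.36% of all genes. Scaling by library size alone, an alternative added after the data were seen, lowered the median of all genes to -0.12 in the GSTA1-high and -0.19 in the BPIFA2C-high comparison with the DLK2 state. The share of called genes that were higher then fell from 50.5% to 38.9% and from 50.6% to 34.1% in these comparisons. It fell from 62.1% to 38.8% between the GSTA1-high and GJA1 states and from 65.5% to 41.8% between the BPIFA2C-high and GSTA1-high states. Under this scaling the members called higher numbered 8, 8, 2 and 3 in these 4 comparisons.

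**Figure D1:**
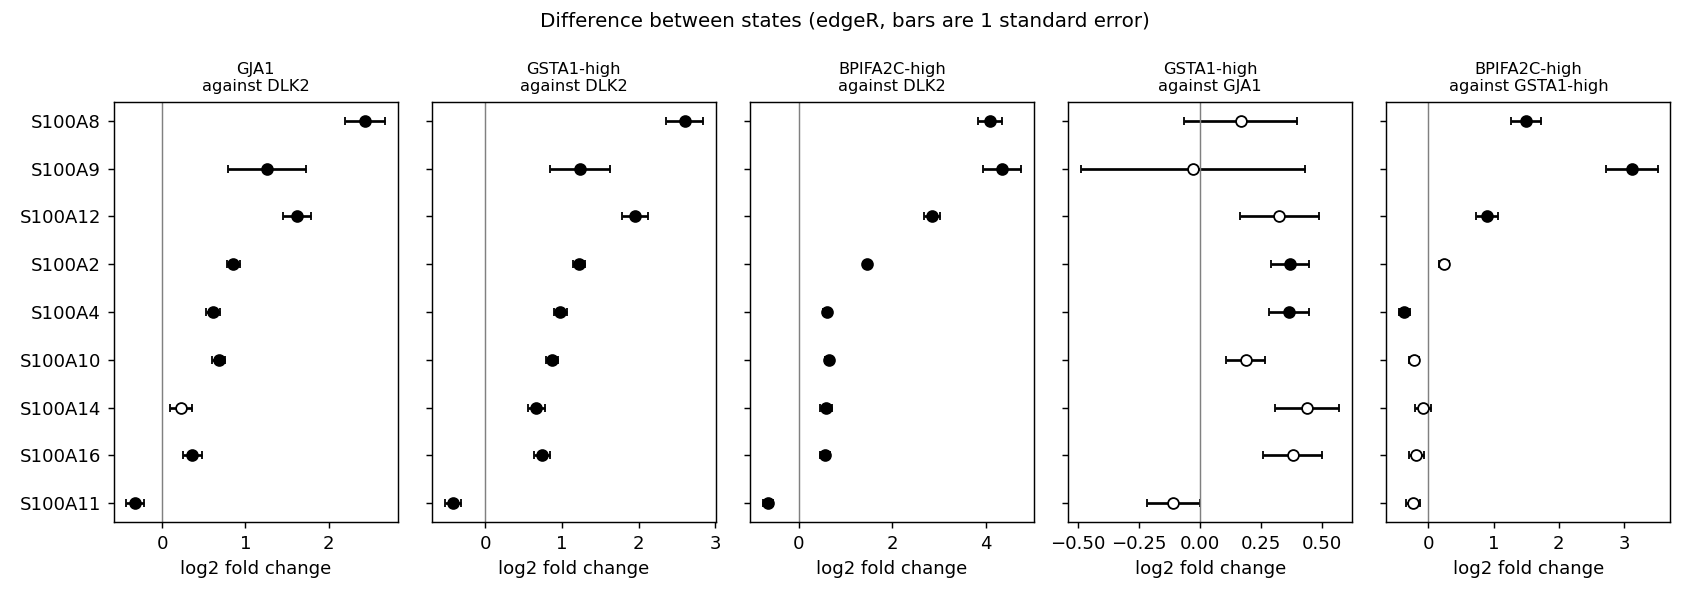
Log2 fold change of 9 S100 genes (vertical axis) in 5 comparisons of cell states, 1 panel each, with bars of 1 standard error and a separate horizontal scale in each panel. Filled points passed the adjusted p and fold limits and open points did not. S100A11 is the only filled point below 0 in the 3 comparisons with the DLK2 state, at -0.32, -0.43 and -0.66.

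Among the 9 genes, the calgranulins S100A8 and S100A12 changed most against the DLK2 state in the GJA1 and GSTA1-high states, and all 3 calgranulins did in the BPIFA2C-high state. S100A8, which pairs with S100A9 as calprotectin, stood at 1.27, 1.05 and 1.29 UMIs per 10000 in the DLK2 state of cows 1, 2 and 3. It stood at 7.90, 5.41 and 5.74 in the GJA1 state and at 8.19, 4.67 and 7.85 in the GSTA1-high state. It reached 13.3, 11.5 and 31.7 in the BPIFA2C-high state. The DLK2 state lay below the other 3 in every cow and did not overlap them, the GJA1 and GSTA1-high states overlapped, and the BPIFA2C-high state lay above all. Against the DLK2 state, the log2 fold change of S100A8 was 2.43 ± 0.24 (SE) in the GJA1 state with an edgeR adjusted p of 5.32e-08. It was 2.60 ± 0.24 in the GSTA1-high state with an edgeR adjusted p of 2.76e-09, and 4.10 ± 0.26 in the BPIFA2C-high state with an edgeR adjusted p of 2.59e-12. From the GSTA1-high to the BPIFA2C-high state it rose by 1.50 ± 0.23 on the log2 scale (edgeR adjusted p = 0.000155). Between the GJA1 and GSTA1-high states the difference was 0.17 ± 0.23 and was not called.

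S100A12, the third calgranulin and a ligand of the receptor AGER, was far more abundant than the other two. Its level in cows 1, 2 and 3 was 13.4, 15.9 and 13.7 UMIs per 10000 in the DLK2 state and 42.1, 50.7 and 37.4 in the GJA1 state. It was 51.2, 48.99 and 53.1 in the GSTA1-high state and 63.9, 82.7 and 128 in the BPIFA2C-high state. As with S100A8, the DLK2 state was lowest and the BPIFA2C-high state highest in each cow without overlap, while the middle states overlapped. The log2 fold change against the DLK2 state was 1.62 ± 0.17 in the GJA1 state, 1.95 ± 0.17 in the GSTA1-high state and 2.85 ± 0.17 in the BPIFA2C-high state (edgeR adjusted p of 7.75e-08, 7.70e-10 and 1.56e-12). S100A12 rose again by 0.90 ± 0.16 from the GSTA1-high to the BPIFA2C-high state (edgeR adjusted p = 0.00107). Including the unmarked cells at 21.9 ± 1.86 and the double state at 29.7 ± 7.12, S100A12 and S100A8 put the 6 states in the same order. That order was DLK2, unmarked, double, GJA1, GSTA1-high and BPIFA2C-high, and every step held in 3 of 3 cows except that from GJA1 to GSTA1-high, which held in 2 of 3.

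S100A9, the partner of S100A8, was scarce outside the BPIFA2C-high state. It had 0.231, 0.288 and 0.223 UMIs per 10000 in the DLK2 state of cows 1, 2 and 3, 0.561, 0.383 and 0.911 in the GJA1 state, and 0.392, 0.637 and 0.677 in the GSTA1-high state. In the BPIFA2C-high state it had 1.53, 2.77 and 12.4. The BPIFA2C-high state did not overlap any other state, and cow 3 stood far above the other two within it. The log2 fold change against the DLK2 state was 4.35 ± 0.41 (edgeR adjusted p = 2.92e-09), and against the GSTA1-high state it was 3.12 ± 0.39 (edgeR adjusted p = 8.58e-06). Without cow 3 these were 3.16 and 2.06 and both were still called, and S100A8 and S100A12 were at 1.02 and 0.57 against the GSTA1-high state, also called. The GJA1 state was higher than the DLK2 state by 1.26 ± 0.46 (edgeR adjusted p = 0.0440), a call lost by DESeq2 (adjusted p = 0.104), without cow 1 (edgeR adjusted p = 0.132), without cow 2 (edgeR adjusted p = 0.0530), in thinned cells and under looser state limits. The GSTA1-high state was higher by 1.23 ± 0.39 (edgeR adjusted p = 0.0107), which DESeq2 did not call (adjusted p = 0.0799).

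**Figure D2:**
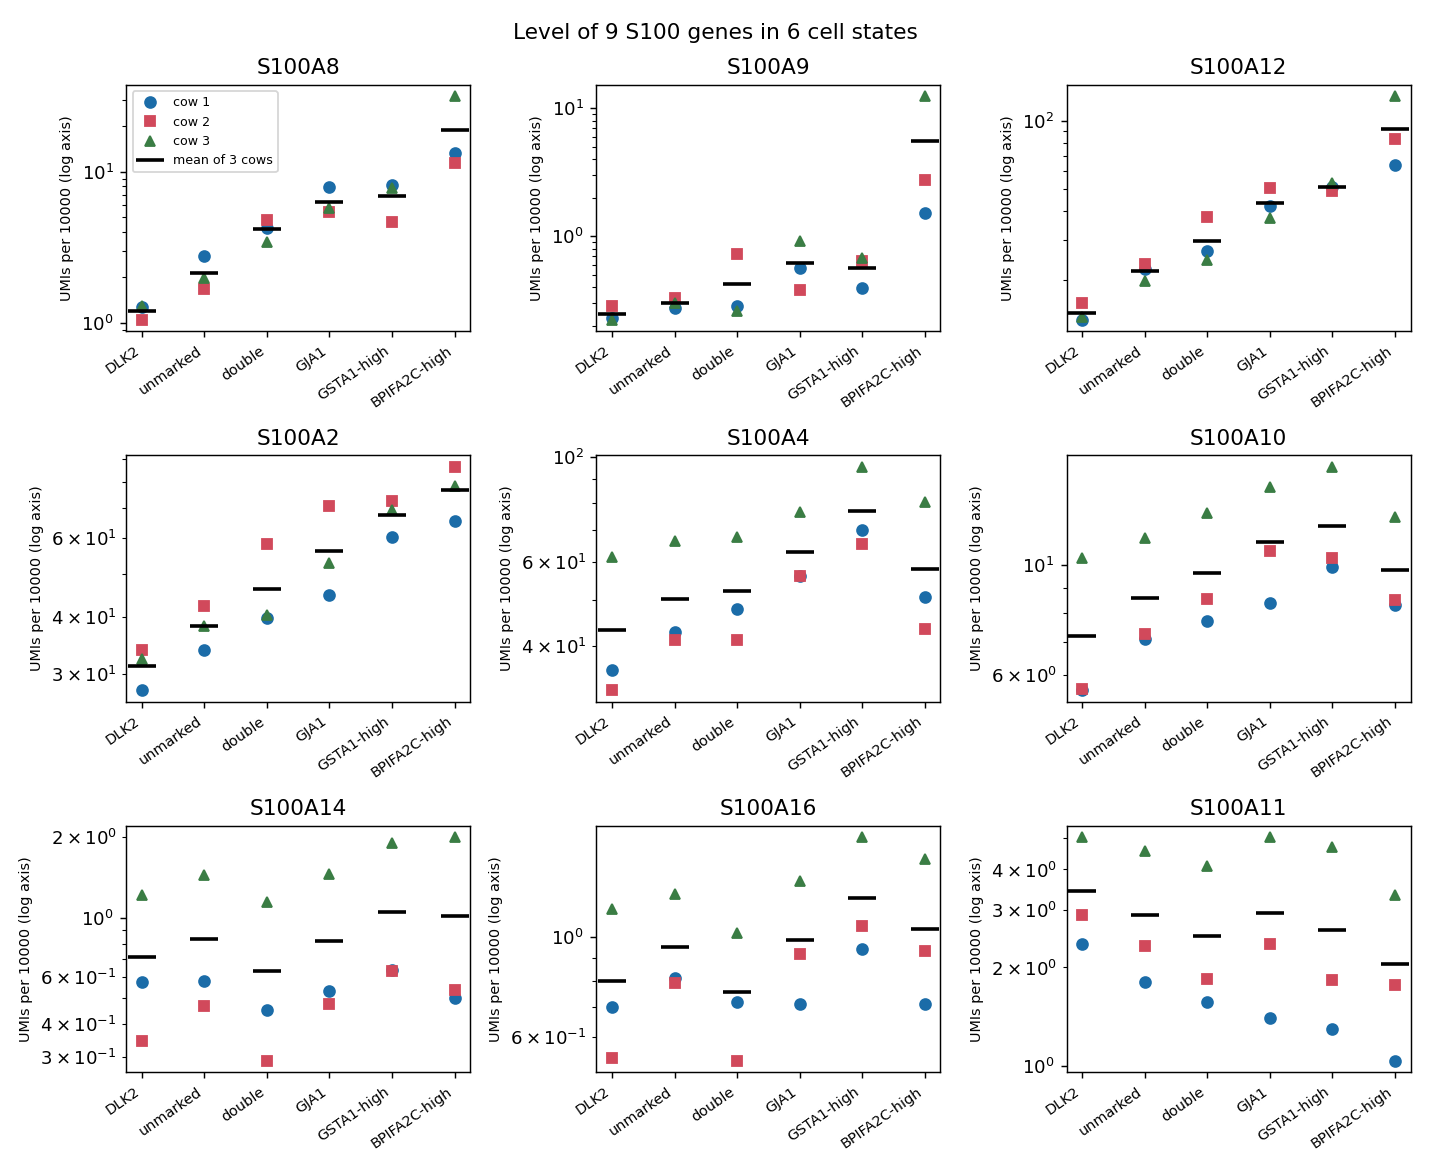
Level of 9 S100 genes, in UMIs per 10000 UMIs on a log axis, in 6 cell states (horizontal axis), with 1 symbol per cow and a bar for the mean of 3 cows. S100A8 and S100A12 rise from the DLK2 state to the BPIFA2C-high state, S100A9 is highest in the BPIFA2C-high state, and for S100A4, S100A10, S100A11, S100A14 and S100A16 cow 3 is the highest point in all 6 states.

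The transcripts of the calgranulins were concentrated in few cells. The top 1% of cells held 48.9%, 49.7% and 50.5% of the S100A9 UMIs of cows 1, 2 and 3, and a mean of 26.1% of those of S100A8 and 12.8% of those of S100A12. For S100A4 the mean share was 4.61% and for S100A10 5.18%, so these were spread evenly by comparison. A single cell held up to 2254 UMIs of S100A12, 936 of S100A8 and 775 of S100A9. The BPIFA2C-high state, with 2.81% of all cells, held 34.6% of the S100A9 UMIs, 22.2% of the S100A8 UMIs and 13.3% of the S100A12 UMIs, against 4.33% of those of S100A4. These shares pool the 3 cows. The cells of this state were deeper, at a median of 17704 UMIs against 10514 over all cells, so its share of all UMIs exceeded 2.81%. Of its 4205 S100A9 UMIs, 1913 lay in 60 cells with a mitochondrial share under 2%.

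The 3 calgranulins did not keep a fixed ratio to each other. S100A12 exceeded S100A8 by 10.6, 15.2 and 10.7 times in the DLK2 state of cows 1, 2 and 3, and by 4.79, 7.21 and 4.04 times in the BPIFA2C-high state, so the ratio was lower in every cow. S100A8 exceeded S100A9 by 5.49, 3.63 and 5.78 times in the DLK2 state, by 20.9, 7.32 and 11.6 times in the GSTA1-high state and by 8.74, 4.15 and 2.55 times in the BPIFA2C-high state. This ratio was highest in the GSTA1-high state among these in every cow, while the BPIFA2C-high state lay above the DLK2 state in cows 1 and 2 and below it in cow 3. It was 14.1, 14.1 and 6.30 in the GJA1 state of cows 1, 2 and 3, above the GSTA1-high state in cow 2. In the double state it was 14.8, 6.58 and 13.2, above the GSTA1-high state in cow 3. These ratios are given as descriptions, without a test.

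Markers of neutrophils and monocytes, blood cells rich in calgranulins, were scarce, and their leading genes were lower in all 3 other states than in the DLK2 state. The authors had removed cells other than epithelial ones beforehand, so few such markers could remain. A blood-cell source of the calgranulins was not tested. Of 7 such genes 6 had a row, MPO was at 0 UMIs, and CSF3R and CXCR2, which define neutrophils, had 6 and 7 UMIs in all 20728 cells. The list summed to 0.231 to 0.406 UMIs per 10000 over the cows in the DLK2 state, and to 0.0876 to 0.237 in the GJA1, 0.0890 to 0.162 in the GSTA1-high and 0.0925 to 0.260 in the BPIFA2C-high state. The list's leading gene CD14, at 5013 UMIs, was called lower than in the DLK2 state in all 3 comparisons, at -1.04, -1.01 and -0.64 on the log2 scale. LCN2, an iron-scavenging defence protein, was also called lower in these, at -1.61, -3.12 and -2.89. CD14 and LCN2, the latter at 1011 UMIs, gave most of the list's 6063 UMIs, so its sums mainly follow these genes. Leukocyte markers summed to 0.0638 to 0.103 UMIs per 10000 in the DLK2 state and to 0.0408 to 0.131 in the BPIFA2C-high state.

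Cell cycle and mitochondrial transcripts differed between the states as well. All 3 cycling markers were called higher than in the DLK2 state in the GJA1, GSTA1-high and BPIFA2C-high states. In the BPIFA2C-high state, RRM2 and MKI67 were higher in only 2 of 3 cows. Their summed level was 0.162 to 1.57 UMIs per 10000 over the cows in the DLK2 state, 1.15 to 4.31 in the GJA1 state, 0.573 to 2.18 in the GSTA1-high state and 0.573 to 1.66 in the BPIFA2C-high state. Of the 13 mitochondrial genes, 10, 9 and 12 were called higher in the 3 states and 0, 1 and 1 lower. Of all genes, 15.1%, 24.7% and 24.4% were called higher and 12.6%, 24.3% and 23.9% lower. Without the cells that held a cycling UMI, and without the mitochondrial genes, the calgranulins kept every call of the 5 comparisons.

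Part of the calgranulin level in the BPIFA2C-high state came from a few cells with almost no mitochondrial RNA. Of its 583 cells, 60 had a mitochondrial share under 2%, with 35, 5 and 20 in cows 1, 2 and 3 and a median depth of 3373.5 UMIs. The 5 cells of cow 2 were too few for a sum. In cows 1 and 3 these cells held S100A12 at 209 and 540 UMIs per 10000, S100A8 at 42.7 and 167, and S100A9 at 3.62 and 125. The 523 other cells of the state held S100A12 at 59.5, 81.1 and 96.0 in cows 1, 2 and 3, S100A8 at 12.4, 11.2 and 21.2, and S100A9 at 1.46, 2.76 and 3.66. The cells of low mitochondrial share were thus higher in both cows for each calgranulin, most of all for S100A9 in cow 3. The same did not hold for S100A4, at 36.6 and 28.4 against 51.3 and 84.2 in the same cows. In the other states, the 210 cells with a share under 2% had S100A9 at 0.642, 0.179 and 4.84 and S100A12 at 86.3, 58.0 and 119. When all cells with a share under 2% were left out, the log2 fold changes from the GSTA1-high to the BPIFA2C-high state were 1.199 for S100A8, 0.69 for S100A12 and 2.22 for S100A9, and all 3 were still called.

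**Figure D3:**
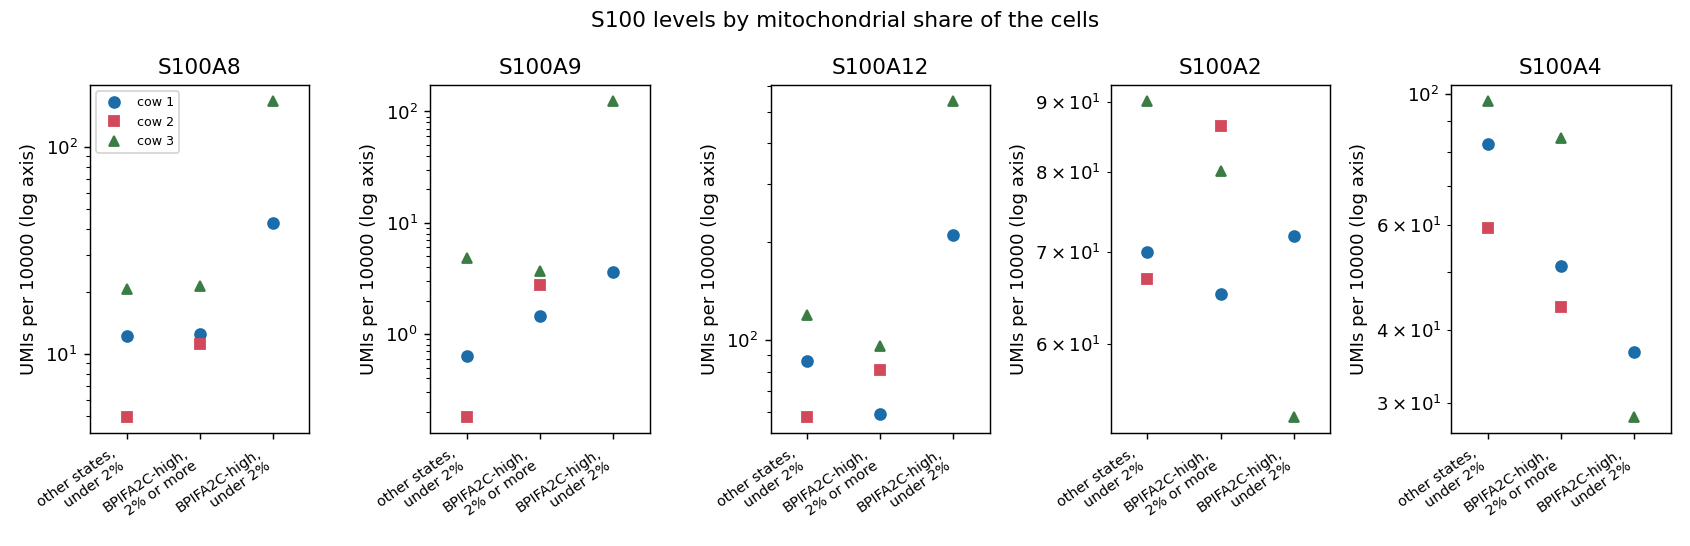
Level of 5 S100 genes, in UMIs per 10000 UMIs on a log axis, in cells of other states with a mitochondrial share under 2%, in BPIFA2C-high cells with 2% or more, and in BPIFA2C-high cells under 2%, with 1 symbol per cow. The BPIFA2C-high cells under 2% are shown for cows 1 and 3 only, and S100A12 there is 209 and 540 against 59.5 to 96.0 in the rest of the state.

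The mean levels of S100A8 and S100A12 were higher in each further bin of GSTA1 counts. Among cells under the BPIFA2C limit, those without GSTA1 held S100A12 at 16.5 ± 1.60 UMIs per 10000 (SD, n = 3 cows), cells with 1 to 2 GSTA1 UMIs at 29.8 ± 3.40, cells with 5 to 9 at 42.6 ± 1.81 and cells with at least 20 at 64.8 ± 1.32. S100A8 went from 1.44 ± 0.240 in cells without GSTA1 to 9.35 ± 1.75 in cells with at least 20 GSTA1 UMIs. S100A9 did not keep this order, with means of 0.269, 0.373, 0.531, 0.423, 0.585 and 0.850 over the 6 bins. Along DLK2 counts of 0, 1, 2 and at least 3, in cells with 0 UMIs of the other 3 markers, S100A12 was at 18.1, 12.8, 11.2 and 13.6 and S100A8 at 1.51, 0.938, 0.765 and 0.966. The cows lay close together for S100A12 at both ends of the GSTA1 counts, while cow 2 stayed lowest for S100A8 from 3 GSTA1 UMIs upward. Cells just below the limit of 5 GSTA1 UMIs, with 3 to 4, held S100A12 at 40.1 ± 3.16 and S100A8 at 5.06 ± 1.36, close to the values of 42.6 and 5.25 just above it. Median depth rose along the same bins, from 9558 to 15664.5 UMIs per cell. With cells thinned to 3000 UMIs, the 491 shallower cells left out and the limits of the BPIFA2C-high and GSTA1-high states lowered to 2 UMIs, S100A8 and S100A12 were called higher in the GJA1, GSTA1-high and BPIFA2C-high states than in the DLK2 state as before.

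Along BPIFA2C counts the calgranulins were higher as well. S100A12 went from 21.3, 22.0 and 24.4 UMIs per 10000 in cells of cows 1, 2 and 3 without BPIFA2C to 102, 149 and 261 in cells with at least 50 BPIFA2C UMIs. S100A9 went from 0.248, 0.330 and 0.340 to 6.23, 3.58 and 42.6. Every cow was higher in both genes at the upper end, and cow 3 was highest there. The cells with a mitochondrial share under 2% made up 26 of the 82 cells of this top bin, 17 in cow 1, 0 in cow 2 and 9 in cow 3. With such cells left out, an alternative added after the data were seen, the top bin held S100A9 at 6.49, 3.58 and 8.35 and S100A12 at 83.4, 149 and 153, still above the cells without BPIFA2C in every cow. S100A4 instead peaked at 69.1 ± 23.9 in cells with 5 to 9 BPIFA2C UMIs and stood at 39.8 ± 9.53 in the 82 cells with at least 50. In cells with 1 to 4 BPIFA2C UMIs, just below the limit of the state, S100A12 was at 43.0 ± 5.96, against 59.0 ± 12.05 in cells with 5 to 9.

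**Figure D4:**
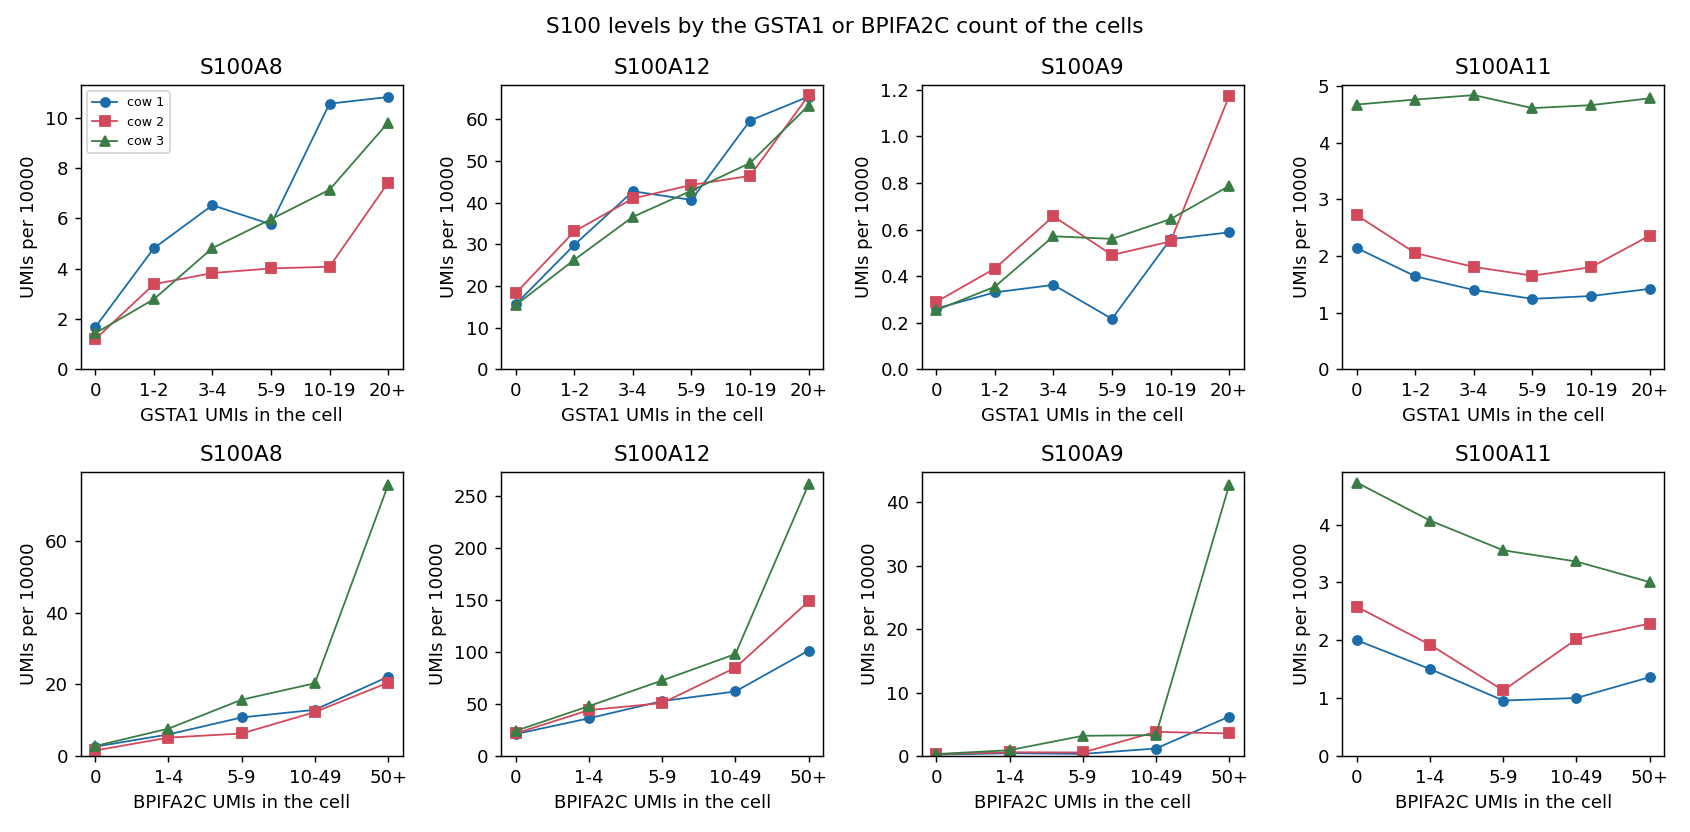
Level of S100A8, S100A12, S100A9 and S100A11, in UMIs per 10000 UMIs from 0, against the number of GSTA1 UMIs (upper row) or BPIFA2C UMIs (lower row) in the cell, with 1 line per cow and a separate vertical scale in each panel. S100A12 climbs from 16.5 to 64.8 on average along GSTA1, and S100A9 stays under 7 along BPIFA2C in cows 1 and 2 but reaches 42.6 in cow 3, or 8.35 without cells of low mitochondrial share.

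S100A2, a nuclear S100 protein of basal keratinocytes, increased at each step between states. Its level in cows 1, 2 and 3 was 27.5, 33.8 and 32.3 UMIs per 10000 in the DLK2 state and 44.8, 70.7 and 52.9 in the GJA1 state. It was 60.5, 72.6 and 69.4 in the GSTA1-high state and 65.5, 86.5 and 78.2 in the BPIFA2C-high state. The DLK2 state lay below the others without overlap, and neighbouring states above it overlapped although each cow kept the order. With unmarked cells at 38.2 ± 4.34 and the double state at 46.2 ± 10.3, all 5 steps of the order held in 3 of 3 cows. Against the DLK2 state the log2 fold change was 0.85 ± 0.079 in the GJA1 state, 1.22 ± 0.079 in the GSTA1-high state and 1.46 ± 0.079 in the BPIFA2C-high state (edgeR adjusted p of 1.76e-08, 5.22e-12 and 1.81e-13). S100A2 was also higher in the GSTA1-high than in the GJA1 state, by 0.37 ± 0.078 (edgeR adjusted p = 0.0167), a call lost without cow 1 (edgeR adjusted p = 0.447) or cow 3 (edgeR adjusted p = 0.103), in thinned cells, without cycling cells and under stricter state limits. From the GSTA1-high to the BPIFA2C-high state it differed by 0.24 ± 0.078, which was not called (edgeR adjusted p = 0.0807).

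S100A4, which binds non-muscle myosin and is linked to cell motility, peaked in the GSTA1-high state. Its level in cows 1, 2 and 3 was 35.7, 32.3 and 61.6 UMIs per 10000 in the DLK2 state and 56.3, 56.1 and 76.7 in the GJA1 state. It reached 70.0, 65.5 and 95.3 in the GSTA1-high state and was 50.9, 43.5 and 80.2 in the BPIFA2C-high state. Every cow rose to the GSTA1-high state and was lower in the BPIFA2C-high state, but cow 3 was so far above the other cows that the states overlapped. The log2 fold change against the DLK2 state was 0.61 ± 0.082 in the GJA1, 0.98 ± 0.082 in the GSTA1-high and 0.61 ± 0.082 in the BPIFA2C-high state (edgeR adjusted p of 3.43e-06, 5.08e-10 and 9.87e-07). The step from the GJA1 to the GSTA1-high state was 0.36 ± 0.081 (edgeR adjusted p = 0.0240), and it was not called without cow 1 (edgeR adjusted p = 0.327), in thinned cells or under stricter state limits. S100A4 fell by 0.37 ± 0.081 on the log2 scale from the GSTA1-high to the BPIFA2C-high state (edgeR adjusted p = 0.00760). This was not called without cow 1 (edgeR adjusted p = 0.120) or without cow 2 (edgeR adjusted p = 0.175), nor under looser state limits.

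S100A10, which does not depend on calcium and forms a complex with annexin A2 at membranes, moved much like S100A4 at a lower level. It had 5.597, 5.63 and 10.3 UMIs per 10000 in the DLK2 state of cows 1, 2 and 3 and 8.39, 10.6 and 14.3 in the GJA1 state. It had 9.89, 10.3 and 15.8 in the GSTA1-high state and 8.30, 8.50 and 12.5 in the BPIFA2C-high state. All cows were lowest in the DLK2 state, cow 3 was again highest throughout, and the states overlapped. The log2 fold change against the DLK2 state was 0.68 ± 0.078, 0.87 ± 0.078 and 0.65 ± 0.078 in the GJA1, GSTA1-high and BPIFA2C-high states (edgeR adjusted p of 4.31e-07, 1.48e-09 and 2.02e-07). Its difference from the GSTA1-high to the BPIFA2C-high state, -0.22 ± 0.078, was not called (edgeR adjusted p = 0.122). S100A4 exceeded S100A10 by a ratio whose mean over cows lay between 5.46 and 6.49 in the 6 states. ANXA2 itself, with 261228 UMIs, was called in none of the 5 comparisons.

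S100A11, a partner of annexin A1 linked to growth arrest of keratinocytes, went the other way. Its level in cows 1, 2 and 3 was 2.36, 2.90 and 5.02 UMIs per 10000 in the DLK2 state, 1.40, 2.37 and 5.03 in the GJA1 state, 1.29, 1.84 and 4.69 in the GSTA1-high state and 1.03, 1.77 and 3.34 in the BPIFA2C-high state. Cows 1 and 2 were lower in each of these states than in the DLK2 state, cow 3 was level with it in the GJA1 state and lower in the other two, and the states overlapped because the cows differed more than the states. The log2 fold change against the DLK2 state was -0.32 ± 0.11 in the GJA1 state (edgeR adjusted p = 0.0277), -0.43 ± 0.10 in the GSTA1-high state (edgeR adjusted p = 0.00129) and -0.66 ± 0.11 in the BPIFA2C-high state (edgeR adjusted p = 1.53e-05). The GJA1 value was not called without cow 1, at -0.15, or without cow 2, at -0.37, nor without cycling cells or under looser state limits, and the GSTA1-high value was not called without cow 2, at -0.35. Along DLK2 counts, in cells with 0 UMIs of GJA1, GSTA1 and BPIFA2C, S100A11 went from 1.92, 2.43 and 4.51 UMIs per 10000 in cells of cows 1, 2 and 3 without DLK2 to 2.91, 3.62 and 5.63 in cells with at least 3 DLK2 UMIs. The level was higher at each further bin of DLK2 counts in all 3 cows.

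S100A14, which is expressed mainly in epithelia, and S100A16 were both scarce and rose by small amounts. S100A14 had 0.574, 0.347 and 1.21 UMIs per 10000 in the DLK2 state of cows 1, 2 and 3, 0.636, 0.629 and 1.90 in the GSTA1-high state and 0.500, 0.538 and 2.00 in the BPIFA2C-high state. S100A16 had 0.699, 0.539 and 1.16 in the DLK2 state, 0.940, 1.06 and 1.67 in the GSTA1-high state and 0.710, 0.931 and 1.50 in the BPIFA2C-high state. Both were higher than in the DLK2 state of the same cow in all 3 cows in the GSTA1-high state, and the ranges overlapped through cow 3. In the BPIFA2C-high state, cow 1 was lower than in its DLK2 state for S100A14 and about level with it for S100A16. On the edgeR scale, which the fold changes use and these levels do not, all 3 cows were higher there for both genes. In the GSTA1-high state the log2 fold change was 0.66 ± 0.11 for S100A14 and 0.74 ± 0.10 for S100A16 (edgeR adjusted p of 1.86e-05 and 1.81e-06). In the BPIFA2C-high state it was 0.58 ± 0.12 and 0.56 ± 0.11 (edgeR adjusted p of 0.000237 and 0.000198). In the GJA1 state S100A16 was called at 0.36 ± 0.12 (edgeR adjusted p = 0.0225), but not without cow 2 (edgeR adjusted p = 0.596), in thinned cells or under other state limits, and S100A14, at 0.23 ± 0.13, was not called (edgeR adjusted p = 0.213).

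Cows differed from each other in the level of several members. Cow 3 was highest in all 6 states for S100A4, S100A10, S100A11, S100A14 and S100A16, and cow 2 was highest in all 6 for S100A2. Over all cells of a cow, S100A14 stood at 0.565, 0.427 and 1.50 UMIs per 10000 in cows 1, 2 and 3, and S100A11 at 1.78, 2.52 and 4.67. S100A12, at 29.8, 25.3 and 27.5, differed little over all cells, but the cows held the states in unlike shares. The BPIFA2C-high state made up 8.61%, 2.08% and 1.40% of the cells of cows 1, 2 and 3. Within that state S100A12 was at 63.9, 82.7 and 128. Each cow is 1 library, so animal and library cannot be told apart. The tests against the DLK2 state compare states within a cow. Without the cow as a block, 2 members were called higher in the GJA1 state, 4 in the GSTA1-high state and 4 in the BPIFA2C-high state, and S100A11 was not called in any of the 3.

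Members whose genes lie side by side were in part alike and in part opposite. In the RefSeq annotation of the later assembly ARS-UCD2.0, used only for gene order, S100A8, S100A12 and S100A9 follow each other. S100A14, S100A16 and S100A2 also follow each other, and S100A10 lies next to S100A11. Over the 18 sums, after the mean of each cow was taken out, S100A8 and S100A12 had a Pearson r of 0.99 on log2 levels, and S100A14 and S100A16 had an r of 0.94. The neighbours S100A12 and S100A9 had an r of 0.88. S100A16 and S100A2 had 0.73, below the 0.97 of S100A2 with S100A12, which is not its neighbour. S100A10 and S100A11, in contrast, had an r of -0.67, and S100A10 was like the more distant S100A4, at 0.95. These sums share libraries and depth, and the values are descriptions.

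**Figure D5:**
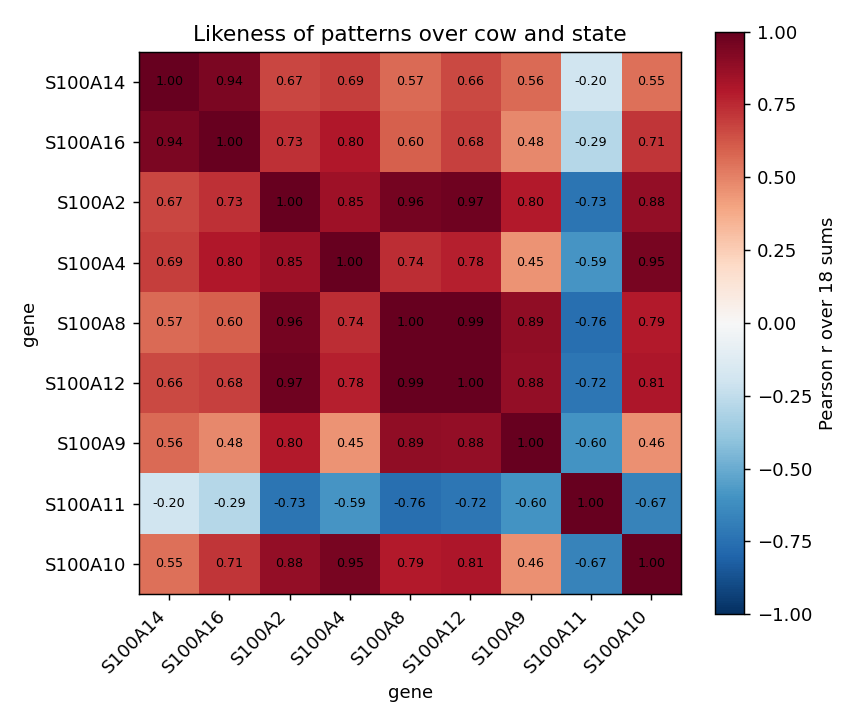
Pearson r between 9 S100 genes over 18 sums of cow and state, on log2 CPM with the mean of each cow taken out, with genes on both axes in groups of neighbours. S100A11 has negative values with all 8 others, from -0.20 to -0.76, and S100A8 with S100A12 has 0.99.

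Outside the S100 genes, the genes nearest to S100A9 were BPIFA2C itself, which set the state, at an r of 0.97, ARHGEF5 at 0.96 and DUOXA2, a maturation factor of the hydrogen peroxide-making dual oxidase 2, at 0.95. S100A12 was nearest to S100A8 and then to CSTB, a cystatin protease inhibitor, and SFN, the keratinocyte protein stratifin, each at 0.99. S100A2 was nearest to UQCRQ and COX6A1, subunits of the respiratory chain, at 0.996 and 0.993. S100A11 was nearest to PA2G4, at 0.89.

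Within a state, single cells high in S100A8 tended to be high in S100A12. In cells thinned to the same depth, r between S100A8 and S100A12 over the 2109 GSTA1-high cells was 0.551, 0.557 and 0.569 in cows 1, 2 and 3, and over the 7137 DLK2 cells it was 0.498, 0.483 and 0.379. Pairs with S100A9 were weaker, with r between S100A9 and S100A12 at 0.350, 0.318 and 0.248 in the GSTA1-high and 0.264, 0.260 and 0.140 in the DLK2 state. S100A9 also had very few UMIs per cell, at a mean over cows of 0.569 and 0.247 UMIs per 10000 in these states. Whether its lower r comes from these low counts was not tested. S100A12 with S100A2 had 0.439, 0.344 and 0.363 in the GSTA1-high state. S100A14 with S100A16, despite their likeness across states, had values between -0.00176 and 0.0913 there, at very few UMIs per cell.

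Other S100 and related genes were mostly scarce. Of 16 listed, 9 had a row and 4 were abundant enough to be tested. S100A13, linked to the export of growth factors that lack a signal peptide, was the most abundant at 9130 UMIs. It had 0.511, 0.370 and 0.550 UMIs per 10000 in the DLK2 state of cows 1, 2 and 3 and 0.187, 0.139 and 0.122 in the BPIFA2C-high state, without overlap. It fell by 0.74 ± 0.14, 1.06 ± 0.10 and 1.43 ± 0.14 on the log2 scale in the GJA1, GSTA1-high and BPIFA2C-high states (edgeR adjusted p of 0.000196, 6.91e-09 and 4.54e-09), although its neighbour S100A14 rose in the last 2. S100A5 rose by 1.00 ± 0.25 and 1.39 ± 0.35 in the GSTA1-high and BPIFA2C-high states (edgeR adjusted p of 0.00186 and 0.00207). These rest on 128 and 34 UMIs of S100A5 in the 2 states. S100B, with 67 UMIs in the BPIFA2C-high state, was called there at 0.79 ± 0.25 (edgeR adjusted p = 0.0124), but its level was 0.0739, 0.0507 and 0.0633 UMIs per 10000 in cows 1, 2 and 3 against 0.0319, 0.0306 and 0.0624 in the DLK2 state, so that cow 3 hardly differed.

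Among receptors and binding partners of S100 proteins, some genes were called higher and some lower. Of 18 listed, 14 were tested. Against the DLK2 state, 3 were called higher and 1 lower in the GJA1 state, 3 and 4 in the GSTA1-high state, and 4 and 5 in the BPIFA2C-high state, beside 15.1% and 12.6%, 24.7% and 24.3%, and 24.4% and 23.9% of all genes. Their medians were 0.09, -0.18 and -0.08 on the log2 scale, beside -0.01, -0.02 and -0.02 over all genes. BSG, or basigin, a receptor described for S100A8 and S100A9, stood at 5.84, 6.53 and 9.31 UMIs per 10000 in the DLK2 state of cows 1, 2 and 3 and at 21.0, 21.9 and 26.1 in the BPIFA2C-high state. It rose by 1.35 ± 0.12, 1.73 ± 0.12 and 1.85 ± 0.12 on the log2 scale in the 3 states (edgeR adjusted p of 6.15e-09, 1.08e-11 and 3.08e-12). AGER, the receptor of S100A12, had 352 UMIs in all, of which 114 were in the DLK2 state, 16 in the GJA1 state, 47 in the GSTA1-high state and 2 in the BPIFA2C-high state, too few in the last for a fold. AGER is still counted among the 5 partners called lower in the BPIFA2C-high state, a call that rests on these 2 UMIs. ANXA1, the partner of S100A11, rose by 0.88 ± 0.11 there (edgeR adjusted p = 5.47e-07), while S100A11 fell.

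Most of the tested genes listed for the cornified envelope and late keratinocytes rose alongside the calgranulins against the DLK2 state. The list includes KRT6A and KRT10, which the authors used as markers of spinous cells, and KRT6A gave 83112 of its 103286 UMIs. LOR, KRT1 and IVL were too scarce to be tested. Of 25 listed, 18 had a row and 10 were tested. TGM1, a transglutaminase, passed the filter on low counts through the BPIFA2C-high sums alone, so that it had to differ there, and it was left out of the counts and medians given here. That check left out the BPIFA2C-high sums only. Of the genes kept, TGM3 and CALML5 had 45 and 17 UMIs in the DLK2 state, so their folds against it rest on few UMIs there. Whether they pass the filter without the other states in which they are high was not tested. Against the DLK2 state, 6 of the other 9 were called higher in the GJA1 state, 8 in the GSTA1-high state and 8 in the BPIFA2C-high state, beside 15.1%, 24.7% and 24.4% of all genes. The count for the GJA1 state was 4 without cow 1 and 3 without cow 2. The medians over the 9 genes were 0.74, 1.33 and 2.54 on the log2 scale, beside -0.01, -0.02 and -0.02 over all genes. The 9 did not move alike. PPL was called in none of the 5 comparisons of the main fit, and EVPL rose by only 0.52, 0.47 and 0.73 in these 3. TGM1 had 0.121, 0.139 and 0.487 UMIs per 10000 in the BPIFA2C-high state of cows 1, 2 and 3 and 0.00982, 0.0115 and 0.00132 in the DLK2 state. TGM3, another transglutaminase, had 0.263, 0.393 and 0.511 in the BPIFA2C-high state and 0.00736, 0.00717 and 0.00264 in the DLK2 state. TGM3 was higher in the BPIFA2C-high state in every cow, without overlap. TGM3 rose by 6.22 ± 0.32 on the log2 scale and CSTB by 4.76 ± 0.24 (edgeR adjusted p of 6.30e-14 and 5.22e-14), and CSTB was at 4.12 without cow 3. CALML5, a calmodulin-like protein of differentiating keratinocytes, had 0.0914, 0.139 and 1.31 UMIs per 10000 in the BPIFA2C-high state and 0.00245, 0.00311 and 0.000439 in the DLK2 state, with cow 3 far above the other cows. Its log2 fold change was 7.66 ± 0.50 (edgeR adjusted p = 4.83e-12), and 5.48 ± 0.34 without cow 3 (edgeR adjusted p = 2.22e-12). It was 8.02 without cow 1 and 9.42 without cow 2. From the GSTA1-high to the BPIFA2C-high state 6 of the 9 were called higher, beside 2.59% of all genes. There CALML5 rose by 4.21 ± 0.41 (edgeR adjusted p = 1.39e-07), or by 4.47, 4.70 and 2.42 without cow 1, 2 or 3, and TGM3 rose by 1.79 ± 0.24 (edgeR adjusted p = 1.93e-05). Between the GJA1 and GSTA1-high states 1 was called, KRT6A, at 0.77 ± 0.16 (edgeR adjusted p = 0.0158), beside 0.873% of all genes, and it was not called without cow 1 (edgeR adjusted p = 0.195).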

How the data were processed

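Single-cell libraries were made with a droplet 3′ kit from 3 cows. Per the labels and the study's methods, the authors aligned reads to the ARS-UCD1.2 assembly with Ensembl 99 genes, built the matrix with Cell Ranger 3.1.0, filtered cells, identified doublets with DoubletFinder and removed cells other than epithelial ones. No further doublet call was made here. The deposited matrix holds whole UMI counts per gene and cell. The authors also deposited natural log values (1 plus UMIs scaled to 10000 per cell), which matched the counts within 1e-06 and gave the gene names. The ending of each barcode was read as naming the cow, and the number of columns left out was 0. No coordinates or sequences are given, because the reference at hand is of another assembly.

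UMI counts (237958901 in all, with 38912809, 94856658 and 104189434 per cow) were summed into 18 sums of cow and state with Python 3.11.15. edgeR 4.0.16 was run in R 4.3.3 with TMM, filterByExpr, the cow as a block and the quasi-likelihood test, leaving 10 residual degrees of freedom and a common biological coefficient of variation of 0.0739. With 3 cows, p-values rest on few animals. This test returns no standard error, so those printed with its log2 fold changes were derived from it. Each is the absolute log2 fold change divided by the square root of the F statistic. After state means were removed, sums of the same cow correlated at 0.602, 0.541 and 0.552 in cows 1, 2 and 3, so the cow pairs the states. Sums of different cows correlated at -0.281, but removing the state means forces this value below 0, so nothing is drawn from it. DESeq2 1.42.0 was an alternative. Scripts were tested on simulated data. The named genes were the members, at most 4 called genes with the largest change from each of 3 lists (other S100 genes, partners, envelope genes), and the nearest genes by Pearson r for up to 4 members. Genes beyond these, such as KRT5, CD14, LCN2 and ANXA2, come from lists of cell type markers or partners, and LOR, KRT1 and IVL, from the envelope list, were added for their low counts after their values were seen. KRT10, EVPL and PPL, from the same list, were also added after their values were seen. The members and lists were chosen with earlier results of these data known. A listed partner is not reported here by name.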

Additional observations from a re-analysis of the deposited data

How the results depend on the processing

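Of 32 called differences of single members, 24 kept direction and call under every alternative that kept the cow as a block, and 0 of 32 changed sign under any of the 14 alternatives. The cow pairs the states, and without that replicate block 11 were still called: the members called higher were then 2, 4, 4, 0 and 1 in the comparisons of GJA1, GSTA1-high and BPIFA2C-high with DLK2, of GSTA1-high with GJA1 and of BPIFA2C-high with GSTA1-high, and those called lower 0 in all. The member called lower than in the DLK2 state became 0 to 1 when each cow was left out for the GJA1 and GSTA1-high states, and 0 for the GJA1 state with looser state limits, without cycling cells or with a fold limit of 0.36. From the GJA1 to the GSTA1-high state, 2 members were called higher in the main fit, 0 to 2 when each cow was left out, 5 with no filter on low counts or with only the 2 states, 1 in thinned cells or without cycling cells, and 0 with stricter state limits. From the GSTA1-high to the BPIFA2C-high state, the 1 member called lower became 0 to 1 when each cow was left out, 0 with looser state limits and 2 with library size alone. The cause of these changes was not tested.

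Signs turned for differences that were not called in the main fit. S100A14 in the GJA1 against the DLK2 state was -0.39 in thinned cells. From the GJA1 to the GSTA1-high state, S100A8 was -0.35 with stricter limits, -0.059 in thinned cells and -0.058 without cycling cells. S100A9 was 0.015 without the block, 0.018 with only the 2 states, 0.16 with looser limits, 0.25 in thinned cells, 0.24 without cells of low mitochondrial share, and -0.39 to 0.20 when each cow was left out. S100A11 was 0.11 with stricter limits, 0.047 in thinned cells and -0.19 to 0.017 when each cow was left out. From the GSTA1-high to the BPIFA2C-high state, S100A14 was 0.011 without the block, 0.21 in thinned cells, 0.025 without cycling cells and -0.29 to 0.043 when each cow was left out. Few UMIs of S100A9, S100A14 and S100A16 limit what can be seen in the double and GJA1 states, which held 267 and 485 cells.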
